A study of Mus musculus with 16 samples.

Results

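Zbtb16, which encodes the zinc finger transcription factor PLZF, and 8 further genes known for their link to glucocorticoid signalling were followed across 4 groups of neonatal mouse ventricle. The 9 genes were the rows of a gene count table whose Ensembl identifiers map to the symbols Zbtb16, Fkbp5, Tsc22d3, Sgk1, Klf9, Ddit4, Nr3c1, Galnt15 and Errfi1, out of 22468 genes in the table. They were chosen from earlier results of these same libraries, in which Zbtb16 was much lower in injured than in sham-operated knockout hearts. For this reason the values of the 9 genes in the comparisons that use the sham-operated knockout hearts are given as a description, with no p-value, and nothing rests on them. Statements that such a value passed or lost the threshold belong to that description and are not tests.

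Glucocorticoids such as corticosterone enter cells and bind the glucocorticoid receptor, a nuclear receptor held in the cytoplasm by HSP90 and its co-chaperones. The bound receptor moves to the nucleus, where it binds glucocorticoid response elements and raises or lowers transcription of its targets. In the heart, glucocorticoids are known for their part in the maturation of cardiomyocytes around birth.

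The study crossed genotype with surgery. Wild-type mice and mice of the Chrna7 knockout line, which lacks the alpha7 subunit of the nicotinic acetylcholine receptor, underwent either sham surgery or myocardial infarction (MI) made by ligation. The groups are written WT-SH, WT-MI, KO-SH and KO-MI, with 4 libraries in each and 16 in all. RNA came from the whole ventricle, taken on both sides of the ligation, so injured and uninjured muscle are mixed in the MI libraries. The interval between surgery and collection, the hour of collection, the age in days, the sex, the litters and any pooling of animals were not given in the sources used here. Nothing in those sources says that the 4 libraries of a group came from separate animals, so the p-values measure the spread between these libraries, which may be technical. In bulk tissue, fewer cells of a type and less RNA per cell cannot be told apart.

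Gene counts ran from 10711442 to 17223580 per library, and levels are given as CPM, which is the count of a gene scaled by the TMM-adjusted library total. Before the TMM adjustment, 3 counts correspond to 0.174 to 0.28 CPM. Chrna7 itself had 0 to 4 counts in each library, 7 in all over the 8 wild-type and 14 over the 8 knockout libraries, too few to check the genotype labels. The 4 KO-SH libraries stood apart on the first principal component of all genes, which held 25.5% of the variance, with scores of 27.9 to 31.6 against at most 0.973 for any other library. The 6 cardiomyocyte markers summed to 37052 to 69061 CPM, and the lowest sum was that of KO-MI replicate 4. That library also had 922 CPM of 4 fibroblast markers and 311.5 CPM of 4 lung epithelium markers, against at least 1633 and at most 54.8 CPM in the other KO-MI libraries. Another 3 libraries (WT-SH replicate 1, KO-SH replicate 2 and KO-MI replicate 1) had 1.73, 2.13 and 2.74 CPM of 4 Y-linked genes, against at least 152 CPM elsewhere. Where a named gene lost its call without KO-MI replicate 4 or without those 3 libraries together, this is said beside its value.

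The glucocorticoid response element is a pair of hexamers, AGAACA and its reverse complement, separated by 3 bases. The promoter windows of 7 of the 9 genes were found in RefSeq for GRCm38.p6 (Ddit4, Errfi1, Fkbp5, Galnt15, Klf9, Sgk1 and Tsc22d3), with no entry for Zbtb16 or Nr3c1. Of their 15 windows, each the 250 bases before an annotated start, 4 held AGAACA on either strand (26.7%), against 16.1% of all 32851 windows. These were 3 of the 6 windows of Sgk1 and 1 of the 3 of Tsc22d3, so 2 of the 7 genes held the hexamer. Windows of 1 gene are not independent, and nothing is read from these shares. The full palindrome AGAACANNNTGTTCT occurred in 3 of the 32851 windows, and a window of Sgk1 was among them. Its first base lies 189 bases before that start. The stretch is shown because Sgk1 is a textbook target of the receptor whose level, given further on, was lowest in KO-SH, where Zbtb16 was highest. The Tsc22d3 stretch, with a single hexamer and no full palindrome, is shown beside it. Capitals mark each hexamer, and both stretches are printed 5′ to 3′ on the strand of the gene, with GRCm38.p6 coordinates (the submitters' processing notes name GRCm39 for the reads).
Sgk1, chr10:21993640-21993739, plus strand: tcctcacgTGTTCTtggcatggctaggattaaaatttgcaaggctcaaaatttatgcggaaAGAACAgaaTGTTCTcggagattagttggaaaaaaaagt
Tsc22d3, chrX:140600655-140600754, minus strand: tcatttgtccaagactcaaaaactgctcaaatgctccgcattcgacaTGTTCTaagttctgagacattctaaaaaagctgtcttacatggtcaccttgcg
The hexamer upstream of Tsc22d3 begins 185 bases before the start. These are matches of letters in reference sequence and no binding was measured here.

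Zbtb16 was high in KO-SH hearts, at a level 7.14-fold that of wild-type shams, and low in the other groups. All KO-SH libraries were also above those of WT-SH for Klf9, Nr3c1, Galnt15 and Ddit4, and below them for Sgk1. For Fkbp5, Tsc22d3 and Errfi1 the sham groups overlapped. After infarction in the knockout, all libraries were below those of knockout shams for Zbtb16, Klf9 and Galnt15, and above them for Sgk1. The other genes of the 9 overlapped between these groups. Between the infarcted hearts of the 2 genotypes no difference passed the test for any of the 9 genes. Tsc22d3, a classical target, stayed within 28.96 to 46.3 CPM in the 16 libraries.

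**Figure D1:**
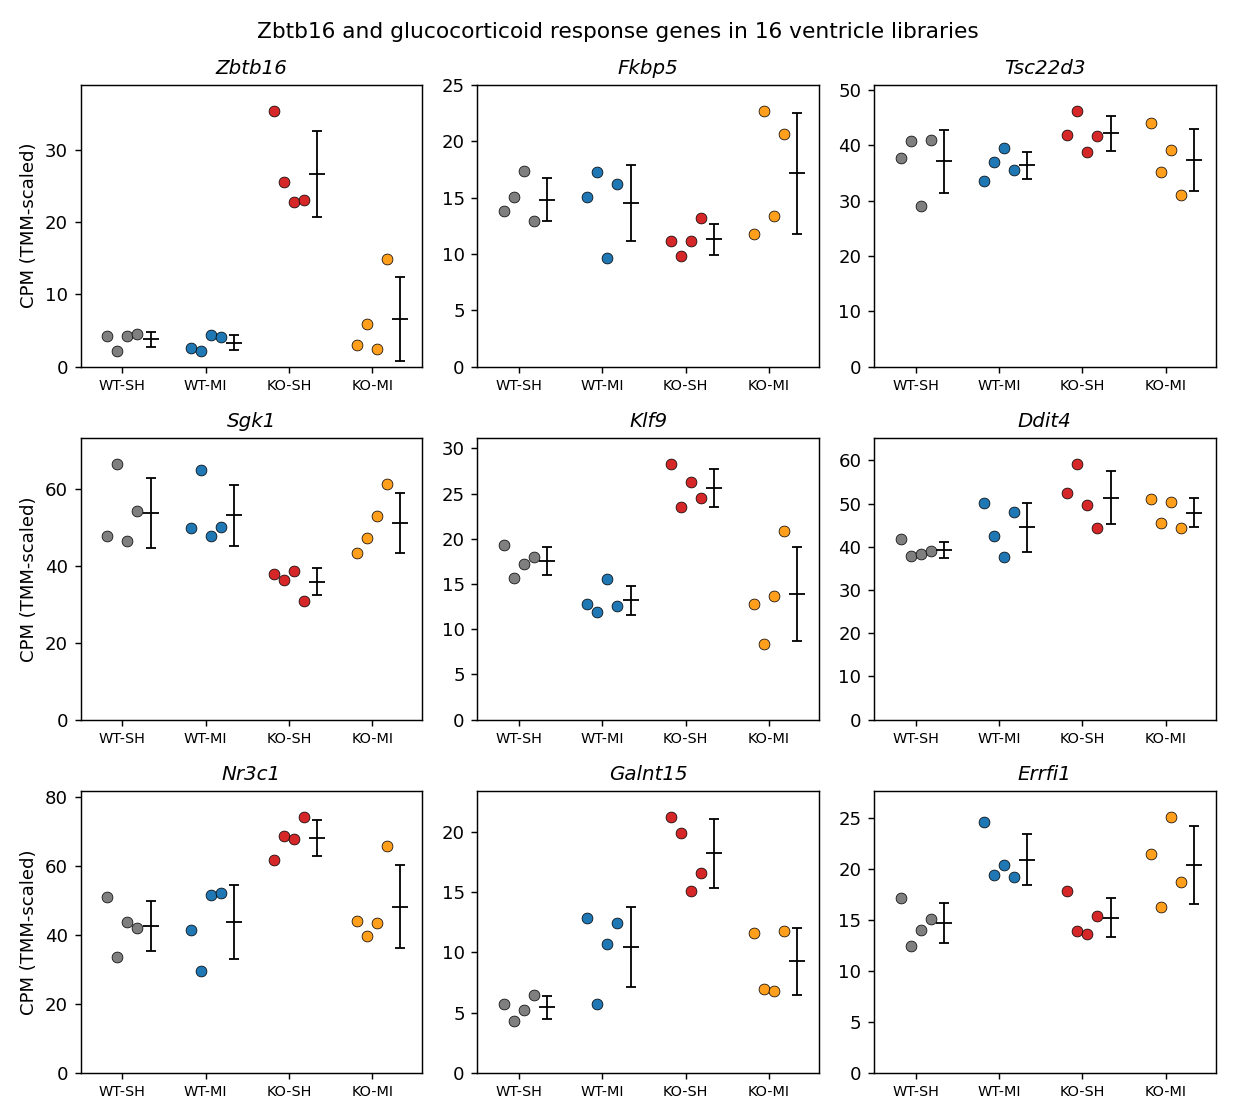
Levels of the 9 genes in each of the 16 libraries, in TMM-scaled CPM on linear axes that start at 0. Each point is 1 library, ordered by replicate number within its group, and the bar beside each group is the mean ± SD (n = 4); the 4 KO-SH points for Zbtb16, Klf9 and Galnt15 lie above, and those for Sgk1 below, all 12 other points of their panel.

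Nr3c1 encodes the glucocorticoid receptor itself. It stood at 51.0, 33.6, 43.8 and 42.2 CPM in WT-SH, and at 41.5, 29.4, 51.6 and 52.2 CPM in WT-MI. In KO-SH it stood at 61.8, 68.6, 67.9 and 74.3 CPM, and in KO-MI at 44.0, 39.6, 43.4 and 65.9 CPM. All 4 KO-SH libraries were above all wild-type libraries, and only KO-MI replicate 4 reached into their range. The receptor transcript was 1.60-fold higher in KO-SH than in WT-SH (log2 0.68 ± 0.17, SE), with means of 68.1 ± 5.11 and 42.6 ± 7.15 CPM (SD, n = 4). The difference no longer passed the threshold without WT-SH replicate 2 (log2 0.57). The log2 difference between KO-MI and KO-SH was -0.50 ± 0.17, and -0.69 without KO-MI replicate 4.

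Fkbp5 encodes FKBP51, an HSP90 co-chaperone that the receptor induces and that in turn lowers the receptor's affinity for hormone. Its levels were 13.8, 15.0, 17.4 and 13.0 CPM in WT-SH, 15.1, 17.3, 9.61 and 16.2 CPM in WT-MI, 11.1, 9.78, 11.1 and 13.2 CPM in KO-SH, and 11.8, 22.7, 13.4 and 20.7 CPM in KO-MI. The KO-SH libraries were at the low end, yet every pair of groups overlapped. Fkbp5 was 1.52-fold higher in KO-MI than in KO-SH (log2 0.60 ± 0.20), and the difference no longer passed without any 1 of KO-SH replicates 1 to 4, KO-MI replicate 2 or 4, or WT-MI replicate 1 (log2 0.44 to 0.68). Nor did it pass with limma voom, without the filter on low counts, or with the 8 compared libraries alone. The same held with a correction for transcript length and GC.

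Tsc22d3 encodes GILZ, a leucine zipper protein that carries part of the anti-inflammatory action of glucocorticoids. It measured 37.7, 40.8, 29.0 and 41.0 CPM in WT-SH, 33.6, 37.0, 39.5 and 35.5 CPM in WT-MI, 41.8, 46.3, 38.9 and 41.6 CPM in KO-SH, and 44.0, 35.2, 39.2 and 31.0 CPM in KO-MI. Every pair of groups overlapped, and the log2 differences of the 4 pairwise comparisons lay between -0.18 and 0.18, each with an SE of 0.11.

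Zbtb16 is induced strongly by glucocorticoids in several cell types, and its protein acts mostly as a repressor. It measured 4.24, 2.18, 4.20 and 4.45 CPM in WT-SH, and 2.55, 2.21, 4.30 and 4.03 CPM in WT-MI. In KO-SH it measured 35.4, 25.5, 22.7 and 23.0 CPM, and in KO-MI 2.95, 5.89, 2.43 and 14.9 CPM. The KO-SH libraries were all above the 12 others, and within KO-MI replicate 4 stood above the other libraries. The mean was 26.7 ± 5.96 CPM in KO-SH against 3.77 ± 1.06 CPM in WT-SH (SD, n = 4), a 7.14-fold difference (log2 2.84 ± 0.46). It was 4.09-fold lower in KO-MI than in KO-SH (log2 -2.03 ± 0.42), and the log2 difference was -2.84 without KO-MI replicate 4. In wild-type hearts the log2 difference after infarction was -0.22 ± 0.53 (edgeR adjusted p = 0.892), within the spread between libraries.

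Klf9 encodes a Krüppel-like factor that is a direct receptor target in many tissues. It measured 19.3, 15.7, 17.3 and 17.98 CPM in WT-SH, 12.8, 11.9, 15.6 and 12.6 CPM in WT-MI, 28.3, 23.5, 26.2 and 24.5 CPM in KO-SH, and 12.7, 8.35, 13.6 and 20.9 CPM in KO-MI. All KO-SH libraries exceeded the 12 others, and the WT-MI libraries were all below the WT-SH libraries. Klf9 was 1.46-fold higher in KO-SH than in WT-SH (log2 0.55 ± 0.18) and 1.85-fold lower in KO-MI than in KO-SH (log2 -0.88 ± 0.18). The first difference no longer passed the threshold without WT-SH replicate 2, 3 or 4, WT-MI replicate 1 or any 1 KO-SH library (log2 0.49 to 0.59), nor without the 3 libraries low in Y-linked reads (0.64). Nor did that difference pass with a Y-linked covariate or with a correction for transcript length and GC. In wild-type hearts the log2 difference after infarction was -0.41 ± 0.18 and did not pass (edgeR adjusted p = 0.284), although the 2 groups did not overlap.

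Sgk1 encodes a kinase that regulates ion channels and cell survival and is induced by glucocorticoids and mineralocorticoids. It measured 47.7, 66.6, 46.5 and 54.1 CPM in WT-SH, 49.9, 64.9, 47.7 and 50.1 CPM in WT-MI, 37.9, 36.4, 38.6 and 30.8 CPM in KO-SH, and 43.2, 47.2, 53.1 and 61.2 CPM in KO-MI. The KO-SH libraries were all below the 12 others. The level in KO-SH was 1.496-fold lower than in WT-SH (log2 -0.58 ± 0.13), and the level in KO-MI was 1.42-fold higher than in KO-SH (log2 0.51 ± 0.13). Over the 16 fits that left out 1 library the values lay between -0.64 and -0.46 and between 0.41 and 0.58. In Sgk1, the gene whose upstream stretch holds the full palindrome printed above, the direction in KO-SH was thus opposite to that of Zbtb16 and Klf9.

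Ddit4 encodes REDD1, an inhibitor of mTORC1 induced by stress and glucocorticoids. It measured 41.9, 37.9, 38.3 and 39.1 CPM in WT-SH, 50.2, 42.5, 37.6 and 48.1 CPM in WT-MI, 52.4, 59.3, 49.6 and 44.3 CPM in KO-SH, and 51.2, 45.6, 50.3 and 44.5 CPM in KO-MI. All KO-SH libraries were above the WT-SH libraries and overlapped both MI groups. The KO-SH level was 1.31-fold that of WT-SH (log2 0.39 ± 0.10), and the difference no longer passed without KO-SH replicate 2 (log2 0.31) or without the 3 libraries low in Y-linked reads (0.35). For KO-MI against KO-SH the log2 difference was -0.10 ± 0.10.

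Galnt15 encodes a member of the GalNAc-transferase family, whose enzymes start O-linked glycosylation. It measured 5.71, 4.29, 5.21 and 6.48 CPM in WT-SH, 12.8, 5.67, 10.7 and 12.4 CPM in WT-MI, 21.2, 19.8, 15.1 and 16.6 CPM in KO-SH, and 11.6, 6.95, 6.76 and 11.8 CPM in KO-MI. The KO-SH libraries were above the 12 others, and WT-MI overlapped WT-SH through WT-MI replicate 2 alone. Galnt15 was 3.37-fold higher in KO-SH than in WT-SH (log2 1.75 ± 0.24) and 1.97-fold lower in KO-MI than in KO-SH (log2 -0.98 ± 0.22).

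Infarction went with opposite directions of Galnt15 in the 2 genotypes. In wild-type hearts the mean was 5.42 ± 0.918 CPM after sham surgery and 10.4 ± 3.29 CPM after infarction (SD, n = 4), a 1.91-fold difference (log2 0.93 ± 0.25). That difference just missed the threshold (edgeR adjusted p = 0.0533), and passed without replicate 2 of WT-MI, and without replicate 3 or 4 of KO-MI. The interaction, which is the change after infarction in the knockout less that in wild type, was -1.91 ± 0.33 on the log2 scale. Over the 16 fits that left out 1 library it lay between -2.13 and -1.78. It includes the KO-SH libraries and is a description.

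Errfi1 encodes MIG6, a feedback inhibitor of the EGF receptor family. It measured 17.2, 12.5, 14.1 and 15.1 CPM in WT-SH, 24.6, 19.4, 20.4 and 19.2 CPM in WT-MI, 17.8, 14.0, 13.7 and 15.4 CPM in KO-SH, and 21.5, 16.3, 25.1 and 18.7 CPM in KO-MI. The WT-MI libraries were all above the WT-SH libraries, and the sham groups of the 2 genotypes lay over the same range. In wild-type hearts the level after infarction was 1.42-fold that after sham surgery (log2 0.51 ± 0.14), which missed the threshold (edgeR adjusted p = 0.0593) and passed without KO-MI replicate 2, 3 or 4. In the knockout the difference was 1.34-fold (log2 0.42 ± 0.14). It no longer passed without WT-SH replicate 3, KO-SH replicate 2, 3 or 4, or KO-MI replicate 1 or 3 (log2 0.31 to 0.43), nor without the 3 libraries low in Y-linked reads (0.36). Nor did it pass with the 8 compared libraries alone or with a correction for transcript length and GC.

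Per kilobase of exon, the order of the genes in wild-type shams ran from Ddit4 (22.4 CPM per kb) through Sgk1 (10.96), Tsc22d3 (8.55), Nr3c1 (5.55), Errfi1 (4.11), Klf9 (3.64) and Fkbp5 (1.56) to Galnt15 (0.857) and Zbtb16 (0.713). The last 2 did not differ beyond their spread. In KO-SH, Zbtb16 reached 5.05 CPM per kb, next to Klf9 at 5.33 CPM per kb.

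All 9 genes passed the filter on low counts, as did 13412 genes in all. A gene was called in a comparison when edgeR's Benjamini-Hochberg adjusted p over those 13412 genes was under 0.05. Between WT-MI and WT-SH, 0 of the 9 genes were called against 2.25% of all genes (1.32% higher and 0.932% lower in WT-MI). At an unadjusted p under 0.05 there were 3 of the 9, beside 2007 of the 13412 genes. DESeq2 called 2 of the 9 (Galnt15 and Errfi1), beside 510 genes in all. The wild-type groups did not overlap for 2 of the 9 (Klf9 and Errfi1), against 8.22% of all genes. Between KO-MI and WT-MI, 0 of the 9 were called against 0.0149% of all genes, with 0 at an unadjusted p under 0.05 and 0 by DESeq2. Over all genes, 638 had an unadjusted p under 0.05 there and DESeq2 called 10. The infarcted groups overlapped for each of the 9, so that 0 were apart against 2.11% of all genes. The median log2 difference of the 9 was -0.01 between the wild-type groups, as for all genes (-0.01), and 0.08 between the infarcted groups (0.00457 for all genes).

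Among infarcted hearts the widest difference was that of Zbtb16, with a log2 value of 1.02 ± 0.49 for KO-MI minus WT-MI (edgeR adjusted p = 0.976). It fell to 0.22 without KO-MI replicate 4. The other 8 log2 differences lay between -0.15 and 0.23.

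The comparisons of KO-SH with WT-SH, of KO-MI with KO-SH and the interaction share the KO-SH libraries, so they are not independent of each other, and the 9 genes were selected with them in view. The shares of all genes are therefore printed for scale and nothing is read from them. Between KO-SH and WT-SH, 6 of the 9 were called, 5 higher and 1 lower, beside 15.3% of all genes, of which 7.6% were higher and 7.74% lower. The 2 groups did not overlap for 6 of the 9, beside 26.3% of all genes. Between KO-MI and KO-SH, 6 of the 9 were called, 3 higher and 3 lower, beside 16.6% of all genes (8.54% higher and 8.02% lower), and 4 did not overlap, beside 23.9%. The 4 KO-SH libraries lay all above or all below the 12 others for 4 of the 9, beside 9.54% of all genes. In the interaction 1 of the 9 was called (Galnt15, lower), beside 2.74% of all genes, with 1.65% higher and 1.1% lower.

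**Figure D2:**
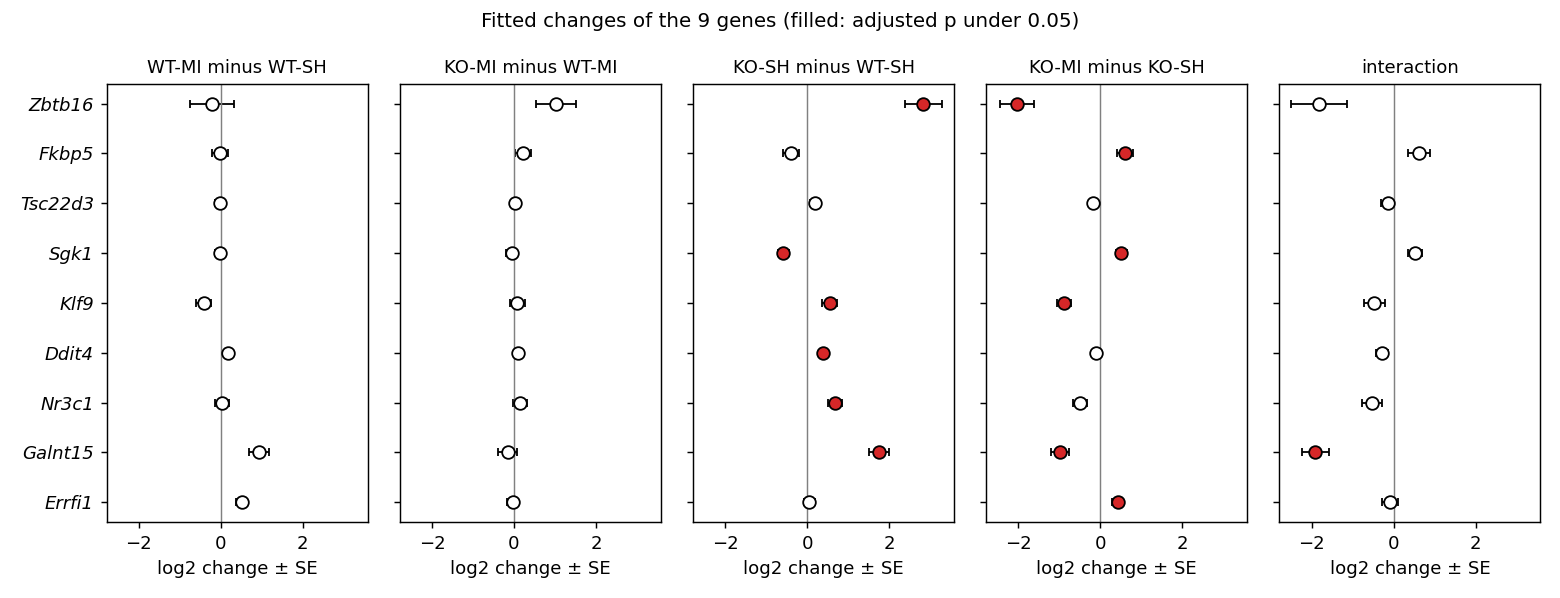
Log2 changes ± SE (bars) of the 9 genes from the edgeR fit in the 4 pairwise comparisons and the interaction, with a line at 0 and filled points for an adjusted p under 0.05. The last 3 panels share the KO-SH libraries and describe the values the genes were chosen from; Zbtb16, at 2.84 and -2.03, and Galnt15, at 1.75 and -0.98, have the largest differences of the 9 in KO-SH minus WT-SH and KO-MI minus KO-SH.

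The interaction of Zbtb16 was -1.82 ± 0.68 on the log2 scale and -2.61 without KO-MI replicate 4. That of Sgk1 was 0.52 ± 0.18, and 0.64 without WT-MI replicate 2. That of Klf9 was -0.47 ± 0.25, and -0.73 without KO-MI replicate 4. In that replicate Zbtb16, Klf9 and Nr3c1 had their highest KO-MI values, together with its low cardiomyocyte and high lung epithelium marker sums. The part of other tissue in these values was not tested.

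Other cell types also differed with the groups. For scale, 15.3% of all genes were called in KO-SH against WT-SH and 16.6% in KO-MI against KO-SH. The shares were 2.25% in WT-MI against WT-SH and 2.74% in the interaction. Atrial markers summed to 123 to 244 CPM in KO-SH against 376 to 1379 in WT-SH, and 3 of 3 were called lower. Mesothelium markers summed to 16.6 to 22.0 CPM against 68.7 to 105, with 4 of 4 called lower, and erythroid markers to 987 to 1403 CPM against 2957 to 4721, with 5 of 5 called lower. Endothelial markers summed to 1392 to 1462 CPM in KO-SH and 1160 to 1292 in WT-SH, with 1 of 4 called higher. In KO-MI against KO-SH, 4 of 4 mesothelium, 3 of 4 macrophage and 3 of 3 tested neutrophil markers were called higher. In WT-MI against WT-SH, 5 of 5 erythroid markers and 1 of 4 mesothelium markers were called lower, and 2 of 4 macrophage markers higher. In the interaction 5 of 5 erythroid and 4 of 4 mesothelium markers were called higher. In the lists of these cell types no marker was at 0 in all 16 libraries. Their part in the values of the 9 genes and of the listed genes was not tested.

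The response was widened to 40 further genes known as glucocorticoid targets in one tissue or another, of which 37 passed the filter. This list and the gene lists that follow were also chosen with earlier results of these libraries known. Their p-values, above all in comparisons that use KO-SH, are therefore not independent tests. In KO-SH against WT-SH, 5 rose and 8 fell (edgeR), and the median log2 difference was -0.08, against -0.01 for all genes tested. That is 13 of 37, beside 15.3% of all genes called. Sesn1, a stress-induced inhibitor of mTORC1, rose by a log2 of 0.65 ± 0.09 (edgeR adjusted p = 0.000128), from 39.7 ± 1.66 to 62.5 ± 5.92 CPM (SD, n = 4). Per1, a clock gene with a well-known response element, fell from 115 ± 14.9 to 31.7 ± 2.02 CPM (log2 -1.86 ± 0.23, edgeR adjusted p = 0.000111). Mt2, a metallothionein that binds zinc, fell from 9.70 ± 2.70 to 2.83 ± 0.832 CPM (log2 -1.76 ± 0.26, edgeR adjusted p = 0.000285). Ptgds, a prostaglandin D synthase, fell from 94.7 to 51.1 CPM (log2 -0.89 ± 0.13, edgeR adjusted p = 0.000164). Listed targets were called in both directions in knockout shams, as were all genes. A further gene called lower, Pck1, was singled out after its values were seen, because its KO-SH mean of 0.142 ± 0.129 CPM is below the level of 3 counts. The sham groups overlapped for Pck1, and its call was kept in 10 of the 16 fits that left out 1 library. The Pck1 call was lost without the 3 libraries low in Y-linked reads, with limma voom and without the filter on low counts.

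Between KO-MI and KO-SH, 8 of the 37 rose and 8 fell (edgeR; 16.6% of all genes were called), with a median of 0.13 against 0.01 for all genes, and 10 in all were called without the 3 libraries low in Y-linked reads. Mt2 rose to 11.1 ± 1.81 CPM (log2 1.97 ± 0.26, edgeR adjusted p = 0.000167). Ptgds rose to 99.05 CPM (log2 0.96 ± 0.13, edgeR adjusted p = 0.000167). Cebpd, an acute-phase transcription factor, rose from 7.69 ± 0.423 to 13.2 ± 1.09 CPM (log2 0.78 ± 0.12, edgeR adjusted p = 0.000517). Pdk4, which restrains glucose oxidation, fell from 269 ± 54.9 to 124.3 ± 31.9 CPM (log2 -1.12 ± 0.15, edgeR adjusted p = 0.00024). These values share the KO-SH libraries with those of the sham comparison.

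In wild-type hearts infarction went with 1 target higher and 2 lower of the 37 (beside 2.25% of all genes; median -0.06, against -0.01 for all genes). That count of 3 was 1 without WT-SH replicate 3 or 4, 0 without WT-MI replicate 1, 5 without WT-MI replicate 3 and 6 without KO-MI replicate 4. Per1 fell to 52.9 ± 12.5 CPM (log2 -1.12 ± 0.22, edgeR adjusted p = 0.015), and the call was lost without WT-MI replicate 1 and with limma voom. Plin4, a lipid droplet protein, fell by a log2 of 0.48 ± 0.11 (edgeR adjusted p = 0.0177), although the groups overlapped. The Plin4 call was lost without WT-SH replicate 3 or 4 or WT-MI replicate 1 or 4 (-0.47 to -0.38). It was also lost in a fit of the 8 compared libraries alone. Cebpd rose by 0.46 ± 0.12 (edgeR adjusted p = 0.0466), a call kept in 5 of the 16 fits that left out 1 library and lost without the 3 libraries low in Y-linked reads (0.39). The Cebpd call was also lost without the filter on low counts, with a replicate block, with a Y-linked covariate and with the 8 compared libraries alone. Between the infarcted groups 0 of the 37 were called by edgeR, and Ptgds had the smallest p (log2 0.40 ± 0.13, adjusted p = 0.857). The counts behind that 0, over all genes, were 638 at an unadjusted p under 0.05 and 10 called by DESeq2.

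The interaction called 4 targets higher and 1 lower (beside 2.74% of all genes; median 0.09, against 0.00245 for all genes), and 8 in all without WT-MI replicate 2. Ptgds (log2 1.29 ± 0.18, edgeR adjusted p = 0.000619), Mt2 (2.07 ± 0.35, 0.00402), Per1 (1.85 ± 0.32, 0.00618) and Mt1 (0.97 ± 0.21, 0.0181) had positive values. Their change after infarction was thus more positive in the knockout than in wild type, whereas that of Galnt15 was more negative.

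**Figure D3:**
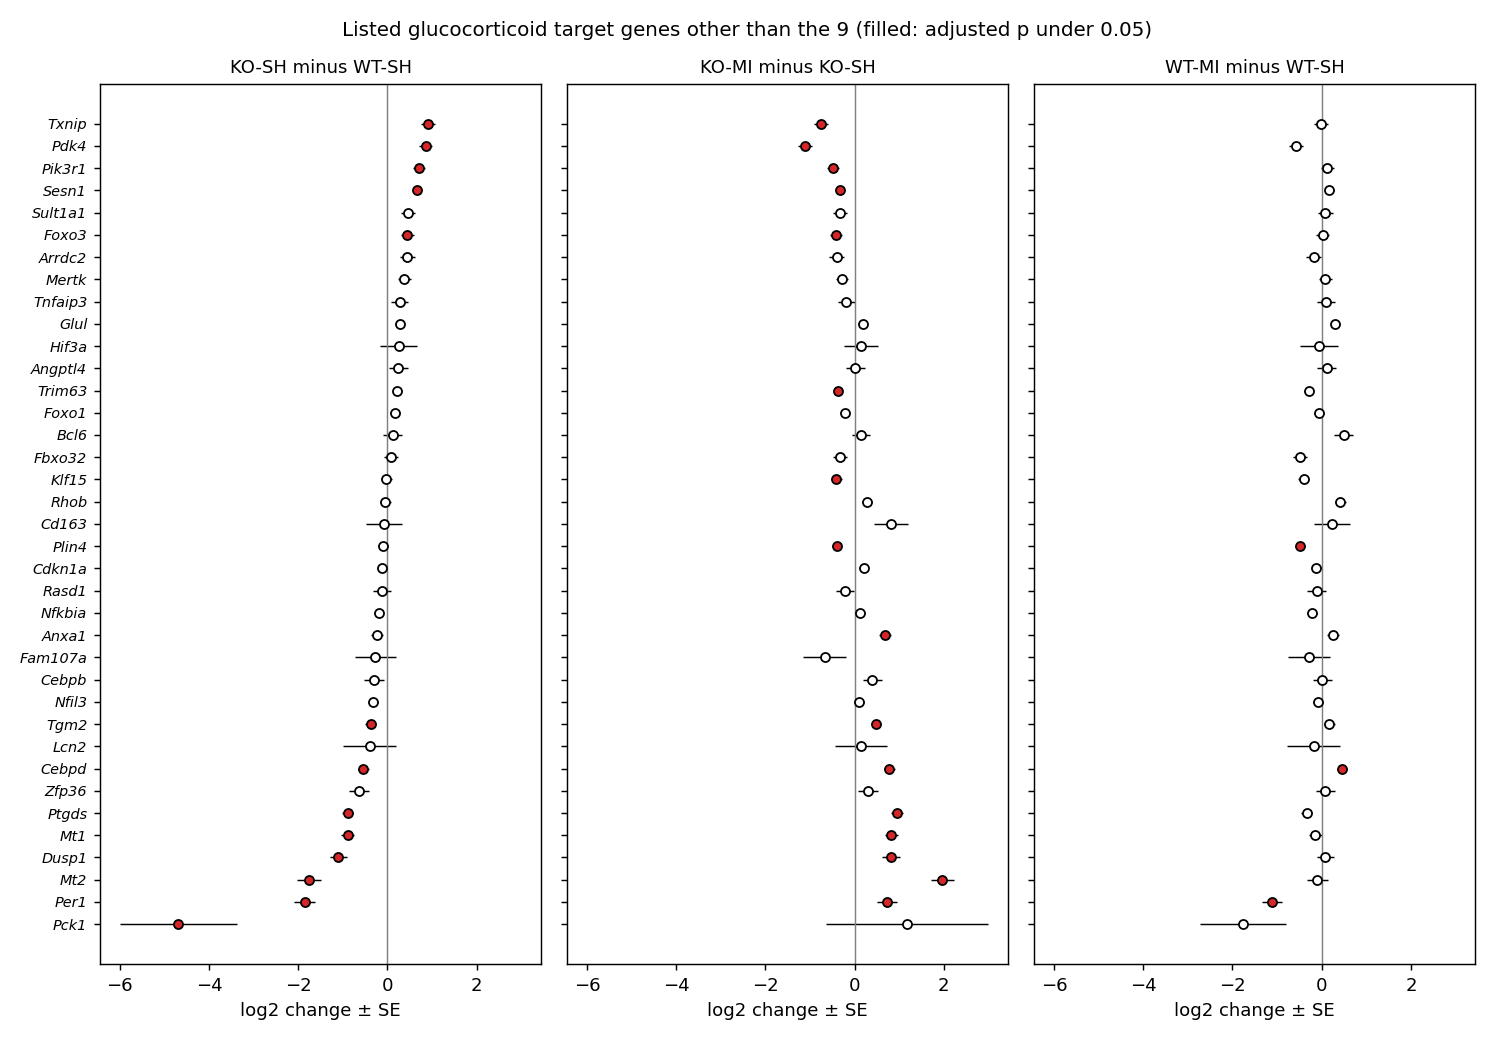
Log2 differences ± SE of the 37 listed glucocorticoid targets that passed the filter, in 3 comparisons on a common axis, ordered by KO-SH minus WT-SH; filled points passed an edgeR adjusted p under 0.05. Filled points lie on both sides of 0 in the 2 comparisons that use KO-SH, and only Plin4, Cebpd and Per1 are filled for WT-MI minus WT-SH.

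The chaperones and cofactors of the receptor formed a list of 18 genes, all tested. In KO-MI against KO-SH, 2 rose and 5 fell (edgeR; 7 of 18, beside 16.6% of all genes). The mineralocorticoid receptor Nr3c2, which also binds corticosterone, fell by a log2 of 0.88 ± 0.19 (edgeR adjusted p = 0.0054). Of the coactivators, Ncoa1 fell by 0.56 ± 0.11 (adjusted p = 0.00194), Ncoa3 by 0.39 ± 0.10 (0.0137) and Ncoa2 by 0.48 ± 0.13 (0.0158). The Ncoa2 call was lost without the 3 libraries low in Y-linked reads (-0.47), and the Ncoa3 call with a correction for transcript length and GC. In KO-SH against WT-SH 2 of the 18 rose, beside 15.3% of all genes called. These were Ncoa3 by 0.36 ± 0.10 (edgeR adjusted p = 0.0227) and the acetyltransferase gene Ep300 by 0.41 ± 0.13 (0.0363). Their calls were kept in 11 and 8 of the 16 fits that left out 1 library. Ncoa3 lost its call without WT-SH replicate 2 or 3 or KO-SH replicate 1, 2 or 4 (0.26 to 0.36), and Ep300 without any 1 sham library (0.36 to 0.43) or without the 3 libraries low in Y-linked reads (0.39). Nr3c2, named here after its value was seen, was at 0.57 ± 0.19 and just missed the threshold (adjusted p = 0.05003), which it passed under 8 of 11 alternatives. The median of the list was -0.04 in that comparison and 0.00884 in KO-MI against KO-SH, against -0.01 and 0.01 for all genes. No gene of the list was called in the other comparisons, where the smallest p belonged to Nr3c2 (log2 -0.61 ± 0.21 in WT-MI against WT-SH, edgeR adjusted p = 0.144; 0.30 in KO-MI against WT-MI, adjusted p = 0.976) and to Ncoa3 (-0.47 in the interaction, adjusted p = 0.0904).

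Of 6 genes of corticosteroid handling, 4 were tested, with medians of 0.14 in KO-SH against WT-SH and -0.12 in KO-MI against KO-SH. In each of these comparisons and in the interaction 1 of the 4 was called, beside 15.3%, 16.6% and 2.74% of all genes. Abcb1a, an efflux pump of endothelium that exports corticosteroids, rose in KO-SH against WT-SH by a log2 of 0.95 ± 0.15 (edgeR adjusted p = 0.00041) and fell in KO-MI against KO-SH by 0.56 ± 0.15 (adjusted p = 0.0137), a call lost without KO-MI replicate 2 (-0.43). Its interaction was -0.86 ± 0.21 (adjusted p = 0.0313), kept in 6 of the 16 fits that left out 1 library. Hsd11b1, which regenerates active corticosterone, lay between 0.387 and 1.73 CPM and was not called in any comparison.

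Among 10 tested paralogues of the 9 genes, 1 was called in each of the 2 pairwise comparisons with KO-SH, beside 15.3% and 16.6% of all genes. The list medians there were 0.03 and -0.09. Klf13, a relative of Klf9, rose in KO-SH against WT-SH (log2 0.70 ± 0.20, edgeR adjusted p = 0.022) and fell in KO-MI against KO-SH (log2 -0.63 ± 0.19, adjusted p = 0.031). Both calls were lost without the 3 libraries low in Y-linked reads (0.76 and -0.64), and they were kept in 13 and 10 of the 16 fits that left out 1 library. Of 10 genes that control mTOR, 2 rose in KO-SH against WT-SH, beside 15.3% of all genes called. These were Deptor, an mTOR inhibitor, by 1.01 ± 0.31 (edgeR adjusted p = 0.0314) and Sesn3 by 0.45 ± 0.15 (0.0468). Deptor fell in KO-MI against KO-SH by 0.96 ± 0.30 (adjusted p = 0.0334), the 1 gene of the list called there, beside 16.6% of all genes. These 3 calls were lost without the 3 libraries low in Y-linked reads (1.02, 0.52 and -0.75), and were kept in 11, 5 and 10 of the 16 fits that left out 1 library. The list medians were 0.06 and -0.17, and 0 genes were called in the other 3 comparisons.

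Errfi1 acts on the ErbB receptors, of which, with their ligands, 8 of 10 genes were tested. In KO-MI against KO-SH 0 rose and 3 fell (edgeR; 16.6% of all genes were called; list median -0.32, against 0.01 for all genes). Erbb4, the neuregulin receptor of cardiomyocytes, fell by a log2 of 1.01 ± 0.21 (adjusted p = 0.00415), Erbb3 by 0.61 ± 0.13 (0.00531) and the ligand Hbegf by 0.40 ± 0.12 (0.0312). The Hbegf call was lost without KO-SH replicate 1, 2 or 4 or KO-MI replicate 2, 3 or 4 (-0.41 to -0.36). Erbb3 rose in KO-SH against WT-SH by 0.57 ± 0.14 (adjusted p = 0.0092), and its interaction was -0.74 ± 0.19 (adjusted p = 0.043). The interaction call was kept in 4 of the 16 fits that left out 1 library and lost without the 3 libraries low in Y-linked reads (-0.89).

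Several targets of the receptor are also clock genes, and the hour of collection is not given. Of 13 tested clock genes, 5 rose and 0 fell in KO-SH against WT-SH (edgeR; beside 15.3% of all genes; median 0.26, against -0.01 for all genes), and 0 rose and 5 fell in KO-MI against KO-SH (beside 16.6%; median -0.33, against 0.01). The activator Tef rose by a log2 of 0.70 ± 0.11 in KO-SH against WT-SH (edgeR adjusted p = 0.000344), and the repressors Nr1d2 and Nr1d1 rose by 0.47 ± 0.13 (0.0209) and 0.41 ± 0.12 (0.0251). The calls of Nr1d2 and Nr1d1 were lost without the 3 libraries low in Y-linked reads (0.47 and 0.34) and kept in 11 and 12 of the 16 fits that left out 1 library. In KO-MI against KO-SH, Nr1d1 fell by 0.66 ± 0.12 (adjusted p = 0.00149), Tef by 0.50 ± 0.11 (0.00482) and Cry2 by 0.54 ± 0.12 (0.00501). Per1 fell in KO-SH against WT-SH, opposite to these genes. The interaction of Nr1d1 was -0.66 ± 0.17 (adjusted p = 0.0414), the 1 called gene of this list there, beside 2.74% of all genes. Per1, counted among the targets, was also called there. The Nr1d1 call was kept in 6 of the 16 fits that left out 1 library and lost without the 3 libraries low in Y-linked reads (-0.63). The part of the hour of collection in any of these values cannot be told apart from that of the group.

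The genes whose levels were most like those of Zbtb16 were ranked by Pearson's r of log2 CPM over the 16 libraries, among 11983 genes. They were Fsd1l (r = 0.96), Vldlr (0.95), Zfp704 (0.95), Atf6 (0.948) and Tollip (0.943), with Spearman's rho of 0.868, 0.85, 0.944, 0.9 and 0.953. Because the KO-SH libraries stand apart for Zbtb16, these values include that separation. For Tollip, KO-MI replicate 4 (34.18 CPM) lay within the KO-SH range (31.46 to 34.23 CPM). With group means removed, r was 0.805, 0.724, 0.866 and 0.84 for Fsd1l, Vldlr, Zfp704 and Atf6. Without KO-MI replicate 4 these became 0.552, 0.649, 0.841 and 0.802. After each group's mean was subtracted, the closest were Tollip (r = 0.965), Cyth3 (0.936), Srp72 (0.929), Smyd1 (0.928) and Kpna1 (0.918), which became 0.924, 0.846, 0.825, 0.825 and 0.799 without KO-MI replicate 4. Among the other 8 genes, Nr3c1 was closest over the 16 libraries (r = 0.867), followed by Klf9 (0.779) and Galnt15 (0.761), and Sgk1 was lowest (-0.708). Within groups the value was 0.677 for Nr3c1 and 0.519 for Klf9, and without KO-MI replicate 4 it was 0.471 and -0.0993.

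**Figure D4:**
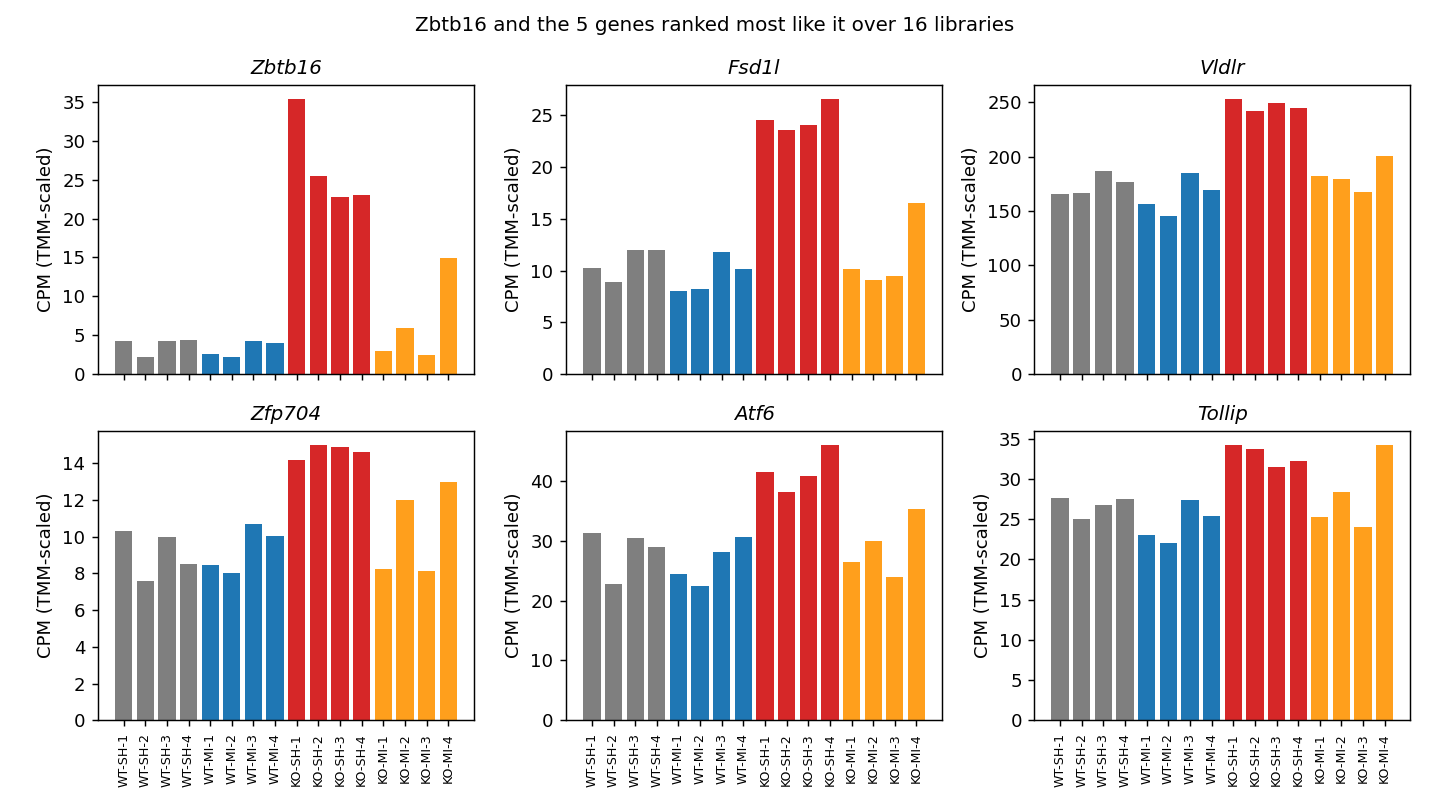
Levels of Zbtb16 and of the 5 genes ranked most like it, in TMM-scaled CPM on linear axes that start at 0, with 1 bar for each of the 16 libraries coloured by group. In each panel the KO-SH bars are high and KO-MI replicate 4 is the highest of the KO-MI bars. Relative to the lowest bar, the range is wide for Zbtb16 (2.18 to 35.4 CPM) and narrower for the other genes, such as Vldlr (146 to 253 CPM).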

How the data were processed

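Per the labels, poly(A) RNA of 16 neonatal ventricle samples was sequenced after Trizol and column extraction. Per the submitters' processing notes, which give no order of steps, the build was GRCm39 and the tools included HISAT2 2.2.1, HTSeq 0.13.5 and cutadapt 3.4; the strand setting and annotation were not given in the sources used here. The authors deposited raw HTSeq counts per gene. Reads in no annotated feature (23.7% to 28.2%) and ambiguous reads (1.56% to 2.08%) were left out.

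The counts were fitted with edgeR 4.0.16 (R 4.3.3; TMM, filterByExpr, robust quasi-likelihood F test, 1 mean per group, 12 residual degrees of freedom, two-sided) over 13412 genes, with Benjamini-Hochberg adjustment and a threshold of 0.05. Standard errors were those implied by the F statistic. Exon lengths came from GENCODE M21 (GRCm38), where no member shares exons with another counted gene. Likeness used log2 CPM with a prior count of 2 over genes whose mean reached 2 CPM in at least 1 group. DESeq2 1.42.0, limma 3.58.1 voom, other scalings, filters, a replicate block, a Y-linked covariate and leaving out each library were alternatives. Fits without the 3 libraries low in Y-linked reads, and with a correction for transcript length and GC, were added after the data were seen. The script was tested on simulated data.

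The members and lists were chosen with earlier results of these data known. In each of 7 gene lists other than markers, up to 4 called genes with the smallest p were eligible to be named per comparison, or the 1 with the smallest p where 0 were called. For Zbtb16 the 5 most correlated genes were named.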

Additional observations from a re-analysis of the deposited data

Results flagged for a closer look

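Within groups of 4, a library was set apart when its gap to the next, divided by the range, exceeded Dixon's 95% critical value for 4 samples. Of 36 combinations of gene and group, 3 met this, and chance flags about 1 in 20. Zbtb16 was low in WT-SH replicate 2 (2.18 CPM, the others 4.20 to 4.45). Sgk1 was high in WT-MI replicate 2 (64.9 CPM, the others 47.7 to 50.1). Nr3c1 was high in KO-MI replicate 4 (65.9 CPM, the others 39.6 to 44.0), the library with the lowest cardiomyocyte marker sum.

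The change of Galnt15 after infarction differed between the genotypes by the interaction term (log2 -1.91), with a positive difference in wild type (0.93) and a negative one in the knockout (-0.98). In wild type 4 of 4 WT-MI libraries were above the WT-SH mean, but WT-MI replicate 2 (5.67 CPM) lay within the WT-SH range (4.29 to 6.48 CPM). In the knockout 4 of 4 KO-MI libraries were below each KO-SH library. Galnt15 was chosen from results of these libraries, so these values are a description.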

How the results depend on the processing

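The 11 alternatives and 16 fits without 1 library each were compared with the reported values. Of the 9 genes, 0 were called for WT-MI minus WT-SH. That count was 2 with DESeq2, with voom, with upper quartile scaling and with the replicate block, 1 with the correction for length and GC, and 0 to 2 without 1 library (1 without WT-MI replicate 2 or KO-MI replicate 2, 2 without KO-MI replicate 3 or 4; Galnt15 and Errfi1 in each count of 2). The interaction count of 1 became 4 with voom and 1 to 3 without 1 library (2 without WT-MI replicate 2, 3 without KO-MI replicate 4). The count of 6 for KO-MI minus KO-SH ranged from 4 to 7 and that of 6 for KO-SH minus WT-SH from 4 to 7, and the count of 0 for KO-MI minus WT-MI was 0 throughout. The number of the 37 targets called ranged from 0 to 6 (reported 3) for WT-MI minus WT-SH, 10 to 23 (16) for KO-MI minus KO-SH, 10 to 20 (13) for KO-SH minus WT-SH and 4 to 8 (5) for the interaction. Totals over all genes also moved with the fit. DESeq2 called 510 genes for WT-MI minus WT-SH, 2621 for KO-MI minus KO-SH, 2469 for KO-SH minus WT-SH and 628 for the interaction. The edgeR fit called 302, 2220, 2057 and 368 in that order. Totals for most other alternatives are not given here, so these shifts are not read as particular to the 9 genes or the targets.

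The replicate numbers are not said to mark a litter or day, so they were not taken as pairs. Same-numbered libraries correlated between -0.0968 and 0.475 after group means were removed. The highest value was that of replicate 2 of WT-MI and WT-SH, the libraries flagged above for Sgk1 and Zbtb16. A shared origin of these libraries was not tested. With the replicate block the 9 genes gave 2, 7, 6, 0 and 1 calls in the order WT-MI minus WT-SH, KO-MI minus KO-SH, KO-SH minus WT-SH, KO-MI minus WT-MI and interaction, and all genes 296, 2412, 2202, 3 and 350.

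Signs turned only in log2 values that had not been called. For WT-MI minus WT-SH, voom gave 0.012 for Sgk1 and 0.090 for Tsc22d3, upper quartile scaling 0.0011 for Fkbp5 and 0.0043 for Sgk1, and the Y-linked covariate 0.016 for Tsc22d3. Without 1 library the ranges were -0.12 to 0.12 for Fkbp5, -0.079 to 0.18 for Nr3c1, -0.13 to 0.10 for Sgk1 and -0.14 to 0.017 for Tsc22d3. For KO-MI minus WT-MI, voom gave 0.028 for Errfi1, -0.12 for Klf9 and -0.061 for Nr3c1, the Y-linked covariate -0.0094 for Tsc22d3, and the set without the 3 libraries low in Y-linked reads 0.015 for Sgk1 and -0.052 for Tsc22d3. Without 1 library these ranged over -0.15 to 0.064 for Errfi1, -0.18 to 0.26 for Klf9, -0.038 to 0.25 for Nr3c1, -0.16 to 0.055 for Sgk1 and -0.05 to 0.12 for Tsc22d3. Errfi1 ranged over -0.036 to 0.14 for KO-SH minus WT-SH and -0.20 to 0.01 for the interaction. The cause of these shifts was not tested. Zbtb16 had 28 counts (2.18 CPM) in its lowest library, and the part of depth in its spread was not tested.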
